A study of Mus musculus with 10 samples.

Results

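The SLC25 carriers are the largest family of transport proteins in the mitochondrial inner membrane, and their genes are named Slc25a followed by a number. Members were the probe sets of the array whose annotation gives a single symbol of that form. There were 50 such probe sets, for 46 genes, among 21789 probe sets with 1 symbol and 35556 in all. Where a gene had several probe sets, the one with the highest mean signal stood for it. Of the 46 genes, 38 were bright enough to be tested, and 8 were not.

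Ventricular RNA of 10 mice was measured, each mouse on an Affymetrix gene array of its own. The labels describe all 10 as knockouts of PGC-1α, encoded by Ppargc1a. By source name every mouse also carried floxed alleles of Ppargc1b, which encodes PGC-1β, together with the tamoxifen-activated recombinase MerCre, whose promoter the labels do not name. The vehicle mice received no tamoxifen, so effects of the drug, of active Cre and of the deletion cannot be told apart. The arrays titled PGC-1a-/-bf/f/MerCre are from mice given tamoxifen at 50 mg/kg per day on 2 successive days at 2 months of age, and their genotype label is a knockout of both coactivators. The arrays titled PGC-1a-/- are from mice given the sunflower seed oil alone on the same schedule, and their genotype label is a PGC-1a knockout with PGC-1b intact; that title names no floxed allele or Cre, so by the titles the groups would also differ in genotype. Hearts were taken at 3 months, 1 month after the injections. The groups are called vehicle-labelled and tamoxifen-labelled here, and each difference is the tamoxifen-labelled mean minus the vehicle-labelled mean in log2 signal, with its standard error (SE) after ±. A log2 signal is comparable between arrays for the same probe set but not between genes. Adjusted p-values are limma's, with Benjamini-Hochberg adjustment over all 13870 tested genes, and a gene is called where that value is under 0.05. Nothing in the labels says how litters or batches were spread over the groups.

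SLC25 carriers move nucleotides, phosphate, carboxylates, amino acids, acylcarnitines, cofactors and metals across an inner membrane that is otherwise closed to them, most of them by exchanging the solute on one face for the solute on the other. In the heart they couple respiration to contraction: ADP and phosphate enter the matrix, ATP leaves it, reducing equivalents arrive through the malate-aspartate shuttle, and fatty acids arrive as acylcarnitines. PGC-1α and PGC-1β are coactivators that work with the nuclear receptor ERRα and with nuclear respiratory factors at genes of mitochondrial metabolism.

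The median log2 signal was 7.31 in tamoxifen-labelled array 2 and 7.18 to 7.24 in the other 9 arrays, so that array stood apart. Of all tested genes 1153 were lower (8.31%) and 1906 higher (13.7%). Higher genes made up 62.3% of these calls, against 49.7% without tamoxifen-labelled array 2 and 65.7% after all arrays were centred on their medians. The probe set of Ppargc1b, the gene labelled as deleted, read higher in the tamoxifen-labelled arrays (0.27 ± 0.061, adjusted p = 0.00518), against the label. The probe set of Ppargc1a also read higher (0.39 ± 0.095, adjusted p = 0.00797). Neither probe set could be placed against the deleted exons, so every direction rests on the labels. Cardiomyocyte markers were at 13.97 to 13.99 in mean log2 signal in the vehicle-labelled arrays and 14.00 to 14.02 in the tamoxifen-labelled ones, with 1 of 10 called lower and 1 higher. Of 10 macrophage markers 7 rose (median 0.28), and of 10 fibroblast markers 7 rose (median 0.20). Of 8 endothelial markers 1 rose, and the 3 tested fat markers were not called. Of 4 atrial markers Nppa rose (0.42 ± 0.072, adjusted p = 0.000448), while Sln (-0.30 ± 0.14), Myl7 (-0.20 ± 0.24) and Myl4 (-0.17 ± 0.17) were not called; the mean log2 signal over this list was 10.455 to 10.65 in the vehicle-labelled arrays and 10.09 to 11.11 in the tamoxifen-labelled ones, a wider spread. Mean log2 signal over the macrophage list was 8.522 to 8.738 against 8.745 to 9.025 in the tamoxifen-labelled arrays, and over the fibroblast list 10.017 to 10.165 against 10.242 to 10.489. Their part in the results below was not tested. In such bulk tissue, fewer cells of a type and less RNA per cell cannot be told apart.

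Of the 38 tested carriers 15 fell, 1 rose and 22 were not called. The share that fell was 39.5%, against 8.31% of all tested genes, and the share that rose was 2.63%, against 13.7%. The median difference was -0.13 over the carriers and 0.014 over all tested genes, and 30 of 38 carriers had a difference below 0, against 45.1% of all genes. In 12 carriers all 5 tamoxifen-labelled values lay below all 5 vehicle-labelled ones (background 6.15%), and in 1 they lay above (background 10.5%).

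The falls were small. They ranged from 1.16-fold to 1.68-fold, 14 of the 15 were within 0.5 on the log2 scale, and 1 carrier, Slc25a11, fell by 0.5 or more on the log2 scale (1.61% of all genes did). With a mean log2 signal of at least 10, 7 of 12 fell (58.3%, against 14.3% of the 2463 genes that bright), and below that level 8 of 26 did (30.8%, against 7.03%). In 8 of the 15 lower carriers tamoxifen-labelled array 2, whose median signal was high, had the highest value of its group. Without that array 18 carriers fell, against 11.9% of all genes. Over the 38 carriers the median half-width of the 95% interval was 0.12 before any adjustment, and differences as large as -0.19 (Slc25a23) and 0.20 (Slc25a24) were not called; the number of arrays limits the precision.

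**Figure D1:**
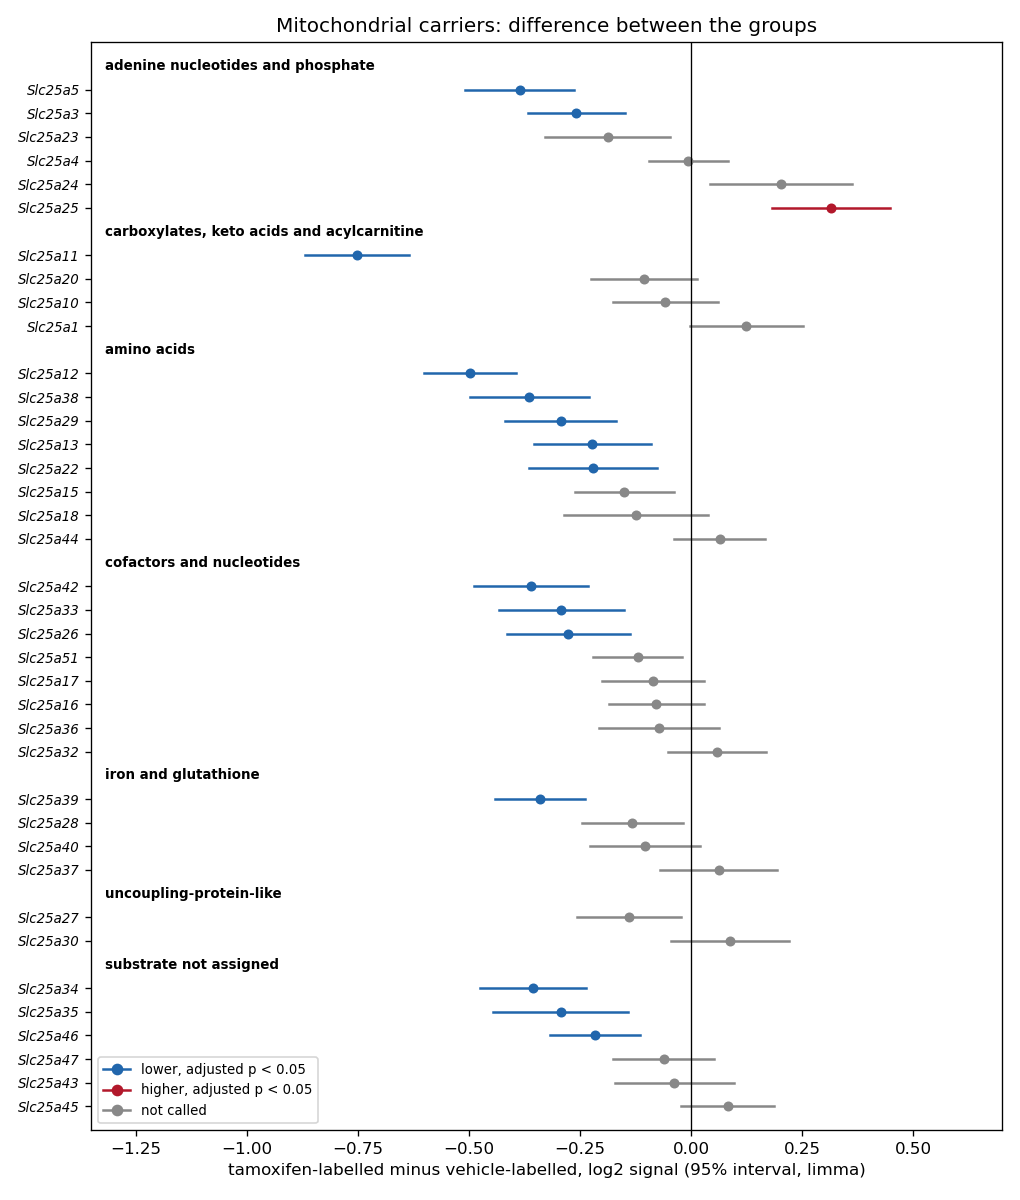
Differences between the groups for the 38 tested carriers, in log2 signal, with limma's 95% intervals and grouped by what the carriers move. The 15 that fell lie to the left of 0, with Slc25a11 farthest at -0.75, and Slc25a25 at 0.31 is the single rise.

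**Figure D2:**
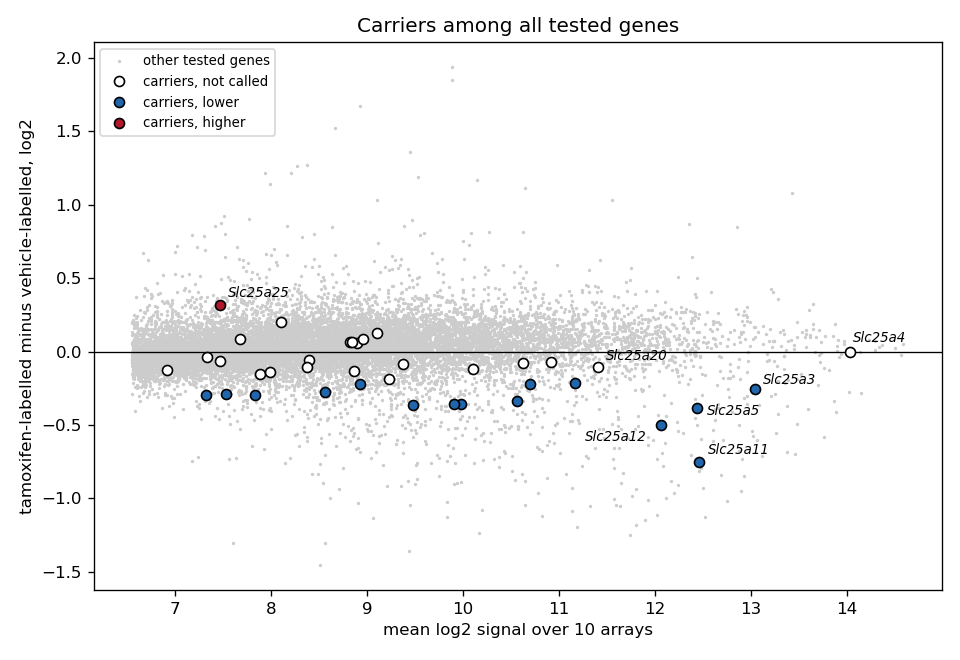
Mean log2 signal over the 10 arrays (horizontal) against the difference between the groups in log2 (vertical) for all tested genes in grey and the carriers as circles. Slc25a11, Slc25a12, Slc25a5 and Slc25a3 are bright carriers that fell, while Slc25a4 lies at -0.0060.

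The counts by class below stand against 8.31% lower and 13.7% higher among all tested genes. Among the 38 tested carriers the shares were 39.5% and 2.63%. Each class held 2 to 8 tested carriers, and differences between classes were not tested. Of 6 tested carriers of adenine nucleotides and phosphate, 2 fell and 1 rose. The 2 that fell were Slc25a5, which encodes the adenine nucleotide translocase ANT2, and Slc25a3, the phosphate carrier that supplies ATP synthase. The heart isoform of the translocase, ANT1 (Slc25a4), was not called. The promoters of both translocase genes are shown for comparison, from 250 bases before to 50 bases after the gene start (RefSeq, GRCm38.p6, read on the gene's strand). Capitals mark the sequence CCGGAAG, which ETS factors such as GABP bind. It is in 8.86% of all promoter windows, and Slc25a5 has none. Tested carriers that hold it fell, rose or were not called, and its part in the difference between the 2 genes was not tested.
Slc25a4 promoter, chr8:46211013-46211312, strand minus: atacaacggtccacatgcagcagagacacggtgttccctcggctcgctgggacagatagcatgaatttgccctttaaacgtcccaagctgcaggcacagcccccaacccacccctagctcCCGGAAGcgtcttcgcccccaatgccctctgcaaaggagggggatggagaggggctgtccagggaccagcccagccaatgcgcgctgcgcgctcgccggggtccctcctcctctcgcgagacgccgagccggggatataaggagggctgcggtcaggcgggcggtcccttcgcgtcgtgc
Slc25a5 promoter, chrX:36795347-36795646, strand plus: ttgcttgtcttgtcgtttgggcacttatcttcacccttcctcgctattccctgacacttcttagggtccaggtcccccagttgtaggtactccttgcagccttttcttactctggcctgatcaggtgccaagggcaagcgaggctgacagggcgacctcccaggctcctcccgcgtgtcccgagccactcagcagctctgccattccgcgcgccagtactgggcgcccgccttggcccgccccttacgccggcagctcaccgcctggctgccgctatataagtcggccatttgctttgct

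Slc25a4 exchanges ATP for ADP in heart and skeletal muscle. In vehicle-labelled arrays 1 to 5 it read 14.01, 14.06, 14.03, 14.03 and 14.03, and in tamoxifen-labelled arrays 1 to 5 it read 14.01, 14.02, 14.02, 14.06 and 14.02. The groups overlapped fully. The difference was -0.0060 ± 0.042 (adjusted p = 0.942), with a 95% interval from -0.096 to 0.084. Among the 49 tested genes with the highest mean signal, where Slc25a4 ranked 11, 8 were called lower and 8 higher. The lower ones included Cox6c (mean log2 signal 14.151, difference -0.282) and Atp5b (14.025, -0.278), against a mean of 14.029 for Slc25a4. Of the genes brighter than Slc25a4, Cox6c alone was called, and the others had differences from -0.022 to 0.08. Whether the probe set of Slc25a4 could register a fall at such a signal was not tested.

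Slc25a5, the translocase isoform found more broadly across tissues, read 12.63, 12.70, 12.65, 12.61 and 12.57 in the vehicle-labelled arrays and 12.18, 12.37, 12.36, 12.10 and 12.22 in the tamoxifen-labelled arrays. All tamoxifen-labelled values lay below all vehicle-labelled ones, and it fell by 0.39 ± 0.058 (1.31-fold, adjusted p = 0.000138). Its 3 probe sets gave differences of -0.39, -0.40 and -0.38. The annotation gives all 3 to this gene, and the positions they target were not checked. They come from the same mice and are not separate evidence. Within each array the log2 ratio of Slc25a4 to Slc25a5 rose by 0.38 ± 0.060, from 1.40 ± 0.040 to 1.78 ± 0.13 (SD, n = 5; exact permutation p = 0.00794, adjusted p = 0.0119 over 9 carrier pairs). No smaller p is possible with 5 arrays in each group.

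Slc25a3 carries phosphate, and in one of its splice forms copper, into the matrix. Its vehicle-labelled values were 13.18, 13.17, 13.18, 13.17 and 13.14, and its tamoxifen-labelled values were 12.78, 12.99, 13.01, 12.91 and 12.86. The groups did not overlap, and the tamoxifen-labelled arrays were the more spread. It fell by 0.26 ± 0.051 (1.2-fold, adjusted p = 0.00179).

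The ATP-Mg/phosphate carriers, which calcium activates and which set the size of the adenine nucleotide pool in the matrix, had 1 called member of 3 tested. Slc25a25 was the single carrier that rose. It read 7.31, 7.25, 7.26, 7.33 and 7.37 in the vehicle-labelled arrays and 7.72, 7.77, 7.59, 7.60 and 7.41 in the tamoxifen-labelled ones, with no overlap, and rose by 0.31 ± 0.063 (1.24-fold, adjusted p = 0.00180). Slc25a24 read 8.09, 8.0, 8.04, 7.72 and 8.14 against 8.29, 8.25, 8.09, 8.30 and 8.07. Its groups overlapped, vehicle-labelled array 4 was low, and the difference of 0.20 ± 0.075 was not called (adjusted p = 0.0669). Without vehicle-labelled array 5 or tamoxifen-labelled array 5 it was called (adjusted p = 0.0426 and 0.0493). Over 18 alternatives, which changed the processing or left out 1 array, it was called in 4. Slc25a23 read 9.55, 9.27, 9.33, 9.22 and 9.23 against 9.15, 9.27, 9.07, 9.13 and 9.04. The groups overlapped, and its difference of -0.19 ± 0.066 was not called (adjusted p = 0.0521), but it was without vehicle-labelled array 4 or 5 or tamoxifen-labelled array 2 (adjusted p = 0.0401, 0.0476 and 0.0250). Slc25a23 was called in 9 of the 18 alternatives, among them quantile normalization, median centring and array weights. Its adjusted p ranged from 0.00978 to 0.131 over the 18. The ratio of Slc25a23 to Slc25a25 fell by 0.50 ± 0.076, with no overlap between the groups (exact permutation p = 0.00794, adjusted p = 0.0119), while that of Slc25a24 to Slc25a25 differed by -0.11 ± 0.088 and did not pass (exact permutation p = 0.254, adjusted p = 0.286); without vehicle-labelled array 4 that difference was -0.19 and did (adjusted p = 0.0238). Slc25a25 has 3 annotated starts. The window of one of them is shown because it holds TGACGTCA, the cyclic AMP response element, in capitals; which start the ventricle uses was not measured.
Slc25a25 promoter, chr2:32424017-32424316, strand minus: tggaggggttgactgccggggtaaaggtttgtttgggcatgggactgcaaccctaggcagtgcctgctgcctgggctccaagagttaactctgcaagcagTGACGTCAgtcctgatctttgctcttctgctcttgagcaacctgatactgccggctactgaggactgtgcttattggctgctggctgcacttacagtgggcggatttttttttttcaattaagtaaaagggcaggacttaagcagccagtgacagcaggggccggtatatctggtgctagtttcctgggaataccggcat

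**Figure D3:**
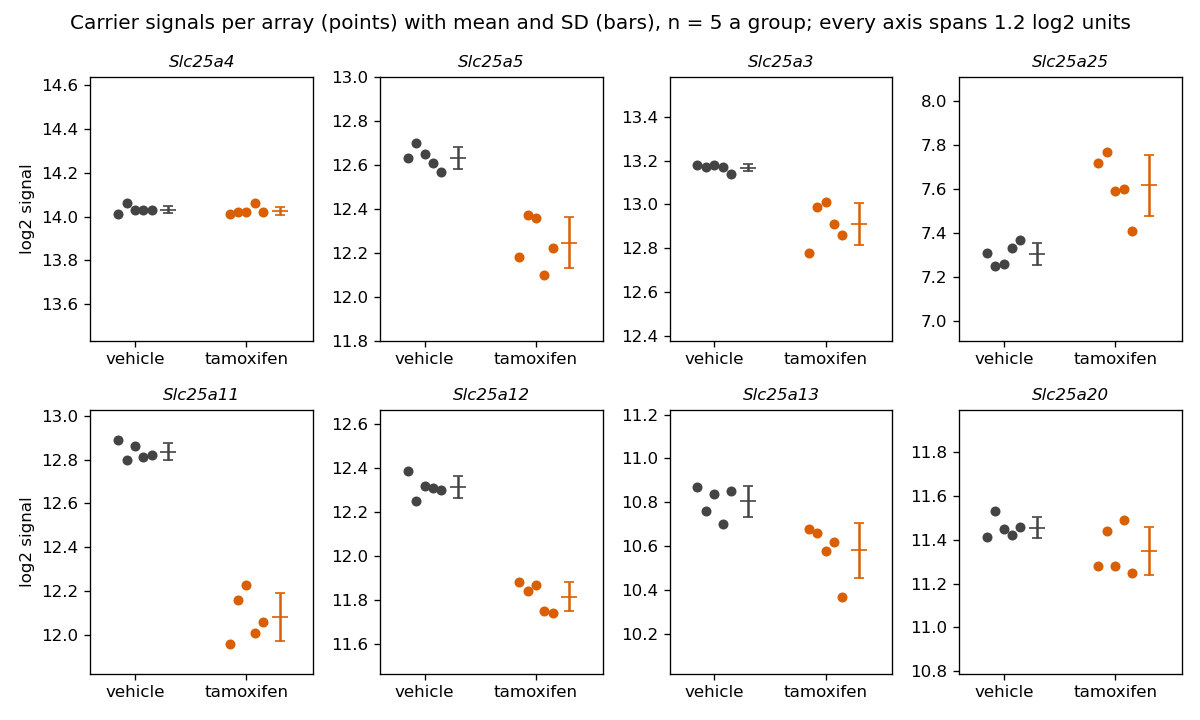
Log2 signal (vertical) of 8 carriers in each vehicle-labelled and tamoxifen-labelled array (points), with the mean and SD of the 5 arrays beside them; every panel spans the same range. Slc25a11 and Slc25a12 separate widely, Slc25a5, Slc25a3, Slc25a13 and Slc25a25 by less, and Slc25a4 and Slc25a20 overlap.

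Among carriers of carboxylates, keto acids and acylcarnitine, 1 of 4 tested fell, and it showed the deepest fall of the family. Slc25a11 exchanges malate for 2-oxoglutarate and is the carrier by which malate enters the matrix in the malate-aspartate shuttle. It read 12.89, 12.80, 12.86, 12.81 and 12.82 in the vehicle-labelled arrays and 11.96, 12.16, 12.23, 12.01 and 12.06 in the tamoxifen-labelled ones. The groups lay far apart relative to their spread, and it fell by 0.75 ± 0.056 (1.68-fold, adjusted p = 6.41e-08). Its promoter is shown because it belongs to the carrier with the deepest fall; it holds none of the 5 motifs searched and is printed in lower case throughout.
Slc25a11 promoter, chr11:70646990-70647289, strand minus: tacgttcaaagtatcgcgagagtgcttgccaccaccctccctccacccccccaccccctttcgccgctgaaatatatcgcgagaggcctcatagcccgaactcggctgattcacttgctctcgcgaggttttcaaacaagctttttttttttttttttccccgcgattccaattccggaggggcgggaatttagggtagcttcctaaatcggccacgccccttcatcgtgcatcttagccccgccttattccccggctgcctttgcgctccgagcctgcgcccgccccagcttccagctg

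The dicarboxylate carrier Slc25a10, which exchanges malate or succinate for phosphate, read 8.51, 8.33, 8.45, 8.48 and 8.36 against 8.40, 8.51, 8.33, 8.31 and 8.29. The groups overlapped (-0.058 ± 0.056, adjusted p = 0.508). The ratio of Slc25a10 to Slc25a11 rose by 0.69 ± 0.063, with all tamoxifen-labelled arrays above all vehicle-labelled ones (exact permutation p = 0.00794, adjusted p = 0.0119), the widest shift of the 9 pairs. Slc25a20, the carnitine-acylcarnitine translocase that brings activated fatty acids into the matrix, read 11.41, 11.53, 11.45, 11.42 and 11.46 against 11.28, 11.44, 11.28, 11.49 and 11.25. Tamoxifen-labelled arrays 2 and 4 lay within the vehicle-labelled range, and the difference was -0.11 ± 0.056 (adjusted p = 0.198), with a 95% interval from -0.22 to 0.013. Slc25a1, the citrate carrier that exports citrate for fatty acid synthesis, was not called either (0.12 ± 0.060, adjusted p = 0.158).

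Amino acid carriers held the most falls by count, with 5 of 8 tested lower, 0 higher and a median of -0.22. Of all tested carriers 39.5% fell, and of all tested genes 8.31%. Whether this class differs from the other carriers was not tested. Slc25a12 and Slc25a13 both encode aspartate-glutamate carriers, which return aspartate to the cytosol in the malate-aspartate shuttle and which calcium activates; Slc25a12 (aralar) is the form of heart and brain and Slc25a13 (citrin) that of liver. Slc25a12 read 12.39, 12.25, 12.32, 12.31 and 12.30 in the vehicle-labelled arrays and 11.88, 11.84, 11.87, 11.75 and 11.74 in the tamoxifen-labelled ones. Without overlap, it fell by 0.50 ± 0.049 (1.41-fold, adjusted p = 1.55e-06). Slc25a13 read 10.87, 10.76, 10.84, 10.70 and 10.85 against 10.68, 10.66, 10.58, 10.62 and 10.37. It too separated the groups, by a narrow margin, and fell by 0.22 ± 0.062 (1.17-fold, adjusted p = 0.0164). Slc25a12 fell more: the ratio of Slc25a12 to Slc25a13 fell by 0.28 ± 0.051, from 1.51 ± 0.061 to 1.23 ± 0.096 (SD, n = 5; exact permutation p = 0.00794, adjusted p = 0.0119).

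Slc25a38 imports glycine for the first step of haem synthesis. It read 9.68, 9.64, 9.75, 9.55 and 9.68 against 9.33, 9.40, 9.08, 9.40 and 9.27, and fell by 0.36 ± 0.063 (1.29-fold, adjusted p = 0.000572), with no overlap. Slc25a29, a carrier of basic amino acids, read 7.44, 7.45, 7.47, 7.60 and 7.38 against 7.06, 7.32, 7.11, 7.24 and 7.14, and fell by 0.29 ± 0.059 (1.23-fold, adjusted p = 0.00188). Both were lower in every tamoxifen-labelled array than in any vehicle-labelled one.

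The glutamate carriers Slc25a22 and Slc25a18 bring glutamate into the matrix with a proton. Slc25a22 read 9.22, 9.09, 9.0, 8.96 and 8.88 against 8.76, 8.96, 8.72, 8.72 and 8.89. Its groups overlapped, and its fall of 0.22 ± 0.068 (adjusted p = 0.0288) was the least secure of the 15: the call was lost without vehicle-labelled array 1 or 2 or tamoxifen-labelled array 1, 3 or 4, with adjusted p from 0.0631 to 0.0780. Slc25a18 read 6.98, 7.11, 7.12, 6.93 and 6.75 against 6.76, 7.07, 6.91, 6.78 and 6.75, also with overlap (-0.12 ± 0.077, adjusted p = 0.277). Their ratio differed by -0.096 ± 0.083 (exact permutation p = 0.286, adjusted p = 0.286), so a difference between the isoforms was not resolved. The ornithine carrier Slc25a15 (-0.15 ± 0.053, adjusted p = 0.0516) and Slc25a44, a carrier of branched-chain amino acids (0.064 ± 0.048, adjusted p = 0.377), were not called. Without tamoxifen-labelled array 2 Slc25a15 was (adjusted p = 0.0118), and it was called in 6 of the 18 alternatives.

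**Figure D4:**
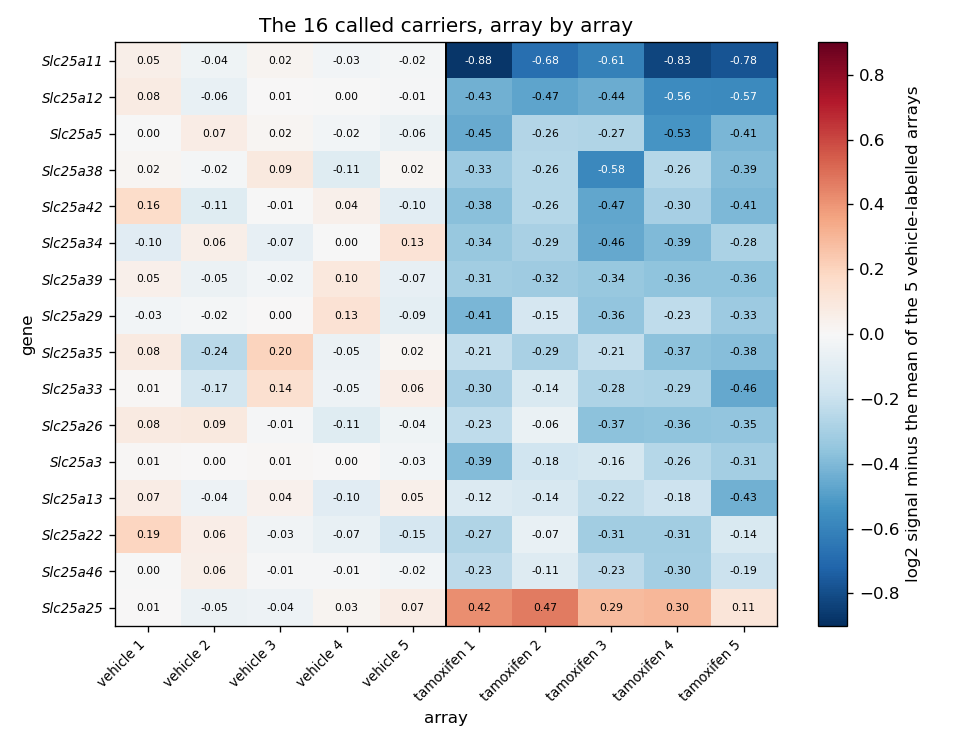
Log2 signal of the 16 called carriers (rows) in each of the 10 arrays (columns), as the difference from the mean of the 5 vehicle-labelled arrays, with blue for lower and red for higher. Each of the 15 lower carriers is below that mean in all 5 tamoxifen-labelled arrays, and the Slc25a11 row is the deepest.

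Of 8 carriers of cofactors and nucleotides 3 fell, with a median of -0.10. Slc25a42, which imports coenzyme A, read 10.32, 10.05, 10.15, 10.20 and 10.06 against 9.78, 9.90, 9.69, 9.86 and 9.75. The groups did not overlap, and it fell by 0.36 ± 0.061 (1.28-fold, adjusted p = 0.000426). Slc25a26 imports S-adenosylmethionine, the methyl donor for mitochondrial RNA and protein. It read 8.78, 8.79, 8.69, 8.59 and 8.66 against 8.47, 8.64, 8.33, 8.34 and 8.35; tamoxifen-labelled array 2 alone reached the vehicle-labelled range, and the fall was 0.28 ± 0.065 (1.21-fold, adjusted p = 0.00585). Slc25a33 and Slc25a36 carry pyrimidine nucleotides for mitochondrial DNA and RNA. Slc25a33 read 7.69, 7.51, 7.82, 7.63 and 7.74 against 7.38, 7.54, 7.40, 7.39 and 7.22, and fell by 0.29 ± 0.066 (1.22-fold, adjusted p = 0.00465), with vehicle-labelled array 2 below tamoxifen-labelled array 2. Slc25a36 read 10.96, 10.94, 10.92, 10.91 and 11.01 against 10.99, 11.05, 10.68, 10.81 and 10.85, with overlap and no call (-0.072 ± 0.064, adjusted p = 0.463); its second probe set gave -0.092. The ratio of Slc25a33 to Slc25a36 differed by -0.22 ± 0.083 and did not pass (exact permutation p = 0.0556, adjusted p = 0.0714), though it did without vehicle-labelled array 2 or tamoxifen-labelled array 3 (-0.26 and -0.27, adjusted p = 0.0306 in both).

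The other 5 were not called. They were Slc25a51, the NAD+ carrier (-0.12 ± 0.047, adjusted p = 0.0826, with no overlap between the groups), Slc25a17, a carrier of the peroxisome membrane (-0.086 ± 0.054), Slc25a16 (-0.078 ± 0.051), Slc25a36 above, and Slc25a32, the folate and FAD carrier (0.058 ± 0.052). Slc25a51 read 10.13, 10.13, 10.20, 10.13 and 10.24 in the vehicle-labelled arrays and 10.10, 10.05, 9.99, 10.09 and 10.00 in the tamoxifen-labelled ones, so the groups nearly touched. Over the 18 alternatives Slc25a51 was called in 2, Slc25a17 in 2 and Slc25a16 in 1.

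Of 4 carriers of iron and glutathione, 1 fell. Slc25a39 imports glutathione, the thiol that keeps matrix proteins reduced and supports iron-sulfur clusters. It read 10.78, 10.68, 10.71, 10.83 and 10.66 in the vehicle-labelled arrays and 10.42, 10.41, 10.39, 10.37 and 10.37 in the tamoxifen-labelled ones. The 5 tamoxifen-labelled values were tightly grouped, and it fell by 0.34 ± 0.048 (1.27-fold, adjusted p = 7.66e-05). Its relative Slc25a40 read 8.59, 8.36, 8.46, 8.48 and 8.25 against 8.32, 8.31, 8.32, 8.32 and 8.35, within the vehicle-labelled range (-0.10 ± 0.058, adjusted p = 0.226). The second probe set of Slc25a40 gave -0.028. The ratio of Slc25a39 to Slc25a40 fell by 0.24 ± 0.041 (exact permutation p = 0.00794, adjusted p = 0.0119).

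The mitoferrins Slc25a37 and Slc25a28 bring iron into the matrix for haem and iron-sulfur clusters. Slc25a37, mitoferrin 1, the form of developing red cells, read 8.85, 8.85, 8.83, 8.70 and 8.84 against 8.76, 9.05, 8.75, 8.85 and 8.97 (0.062 ± 0.062, adjusted p = 0.525). Slc25a28, mitoferrin 2, read 8.87, 8.96, 8.89, 8.95 and 8.95 against 8.75, 8.92, 8.66, 8.85 and 8.78 (-0.13 ± 0.054, adjusted p = 0.0917). Without tamoxifen-labelled array 2 Slc25a28 was called (adjusted p = 0.0229), and it was called in 3 of the 18 alternatives. Neither was called alone, but their ratio shifted: Slc25a37 over Slc25a28 rose by 0.19 ± 0.053, from -0.11 ± 0.087 to 0.084 ± 0.080 (SD, n = 5; exact permutation p = 0.00794, adjusted p = 0.0119), with no overlap. Of 6 erythroid markers 2 had a named probe set, Alas2 (0.19 ± 0.096, adjusted p = 0.177) and Slc4a1, and neither was called; their part in the ratio was not tested.

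**Figure D5:**
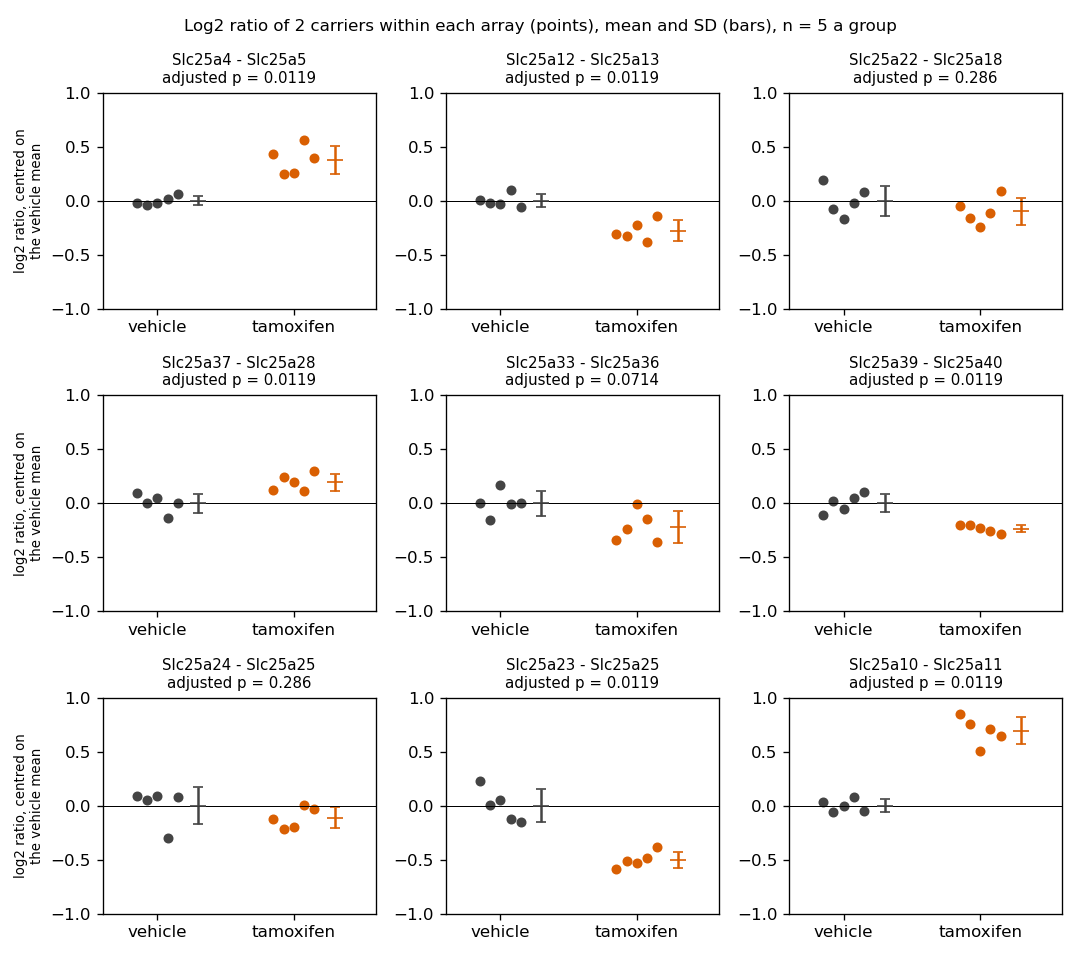
Log2 ratio of 2 carriers within each array (points), centred on the mean of the 5 vehicle-labelled arrays, with the mean and SD of each group beside the points and the adjusted exact permutation p above. In 6 of the 9 pairs the groups do not overlap and the ratio passed, with the widest shift, 0.69, for Slc25a10 over Slc25a11. No background share was computed for ratios of other gene pairs.

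The uncoupling-protein-like carriers were not called. Slc25a27 (UCP4) differed by -0.14 ± 0.055 (adjusted p = 0.0809) and Slc25a30 by 0.088 ± 0.063 (adjusted p = 0.351). Slc25a27 was called in 2 of the 18 alternatives. Among carriers to which no substrate class was assigned here, 3 of 6 tested fell. Slc25a34 read 9.98, 10.14, 10.01, 10.08 and 10.21 against 9.74, 9.79, 9.62, 9.69 and 9.80, without overlap, and fell by 0.36 ± 0.056 (1.28-fold, adjusted p = 0.000239). Its close relative Slc25a35 read 8.05, 7.73, 8.17, 7.92 and 7.99 against 7.76, 7.68, 7.76, 7.60 and 7.59, and fell by 0.29 ± 0.071 (1.23-fold, adjusted p = 0.00728). Vehicle-labelled array 2 lay within the tamoxifen-labelled range. Slc25a46, an outer-membrane member linked to mitochondrial fusion and fission, fell by 0.22 ± 0.048 (1.16-fold, adjusted p = 0.00405); it read 11.25 to 11.33 against 10.97 to 11.16. Slc25a47 (-0.062 ± 0.054), Slc25a43 (-0.038 ± 0.063) and Slc25a45 (0.082 ± 0.049) were not called. The Slc25a34 promoter is shown because, of all carriers with a window, it alone holds AAGGTCA, the core of the half-site that ERRα binds; it appears as its reverse complement, TGACCTT, in capitals.
Slc25a34 promoter, chr4:141623785-141624084, strand minus: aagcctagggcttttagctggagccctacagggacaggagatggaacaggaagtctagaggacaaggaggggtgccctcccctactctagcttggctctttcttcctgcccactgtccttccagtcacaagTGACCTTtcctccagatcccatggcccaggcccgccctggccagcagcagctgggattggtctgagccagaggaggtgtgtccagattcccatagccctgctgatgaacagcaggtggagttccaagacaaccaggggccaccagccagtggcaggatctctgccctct

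Promoter windows were at hand for 36 of the 46 carriers, 46 windows in all, and 5 motifs were searched on both strands. AAGGTCA was in 1 carrier window and in 4.72% of all 32851 windows; the longer TCAAGGTCA, which contains it, was in 0 carrier windows and 0.423% of all. The palindromic site of NRF1 was in 0 carrier windows and 0.971% of all windows. CCGGAAG was in the windows of 7 carriers, Slc25a3, Slc25a4, Slc25a17, Slc25a20, Slc25a25, Slc25a38 and Slc25a54, and in 8.86% of all windows. Of these, Slc25a3 and Slc25a38 fell and Slc25a25 rose. TGACGTCA was in the windows of Slc25a25 and Slc25a36 and in 1.79% of all windows. These matches describe the letters near the starts and show no binding.

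In all, 9 pairs of related carriers were compared, and 6 ratios differed between the groups. How often ratios of other gene pairs differ was not computed, so this count has no background share. Of single genes 22.1% were called, and in 16.7% the groups did not overlap. Every ratio that passed, except that of Slc25a37 to Slc25a28, holds a carrier called on its own. The pairs were chosen with earlier results of these data known. Their ratios are built from the member values given above, so they are not separate evidence. A ratio within an array is free of a shift equal for all genes of that array, but not of one that varies with signal level. It shows that the members' signals changed unequally, not which of them stayed still. The other 2 pairs fixed for comparison, Slc25a15 with Slc25a2 and Slc25a14 with Slc25a30, each had a member below the signal filter.

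The 8 carriers below the filter had mean log2 signals from 4.88 to 6.48, under the limit of 6.55, and were given no test. They were Slc25a2, another ornithine carrier, Slc25a14 (UCP5), Slc25a21, the oxoadipate carrier, Slc25a31, the adenine nucleotide translocase of testis, Slc25a41, and Slc25a48, Slc25a53 and Slc25a54. The groups overlapped in each of them. Slc25a2 read 6.25 to 6.64 in the vehicle-labelled arrays and 6.16 to 6.27 in the tamoxifen-labelled ones, and Slc25a31 5.47 to 6.09 and 5.49 to 5.74.

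A few family members bear other names. Of 5 such genes, 3 were tested and 1 fell, while 8.31% of all tested genes did. It was Mtch2, an outer-membrane protein that inserts other proteins, at -0.21 ± 0.052 (adjusted p = 0.00900). Mtch1 (-0.10 ± 0.050, adjusted p = 0.157) and the uncoupling protein gene Ucp3 (-0.048 ± 0.080, adjusted p = 0.726) were not called. Without tamoxifen-labelled array 2 Mtch1 was (adjusted p = 0.0305), and it was called in 3 of the 18 alternatives. Ucp1, the uncoupling protein of brown fat, was below the filter, and Ucp2 has no probe set of its own name here.

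Of 14 listed inner-membrane transporters outside the family, 12 were tested, 5 fell and 1 rose (median -0.17). Among all tested genes 8.31% fell and 13.7% rose. This list too was chosen with earlier results of these data known. Mpc1, a subunit of the pyruvate carrier, read 12.91, 12.92, 12.93, 12.97 and 12.89 against 12.53, 12.65, 12.62, 12.66 and 12.62, and fell by 0.31 ± 0.046 (adjusted p = 0.000126). Its partner gene Mpc2 has no probe set with a single symbol. Abcb8, an ABC transporter linked to iron export, fell by 0.56 ± 0.065 (adjusted p = 1.10e-05), more than any carrier except Slc25a11; that order was not tested. Letm1, of cation and proton exchange, fell by 0.42 ± 0.052 (adjusted p = 2.02e-05), and Abcb10 by 0.20 ± 0.050 (adjusted p = 0.00942). The sideroflexin genes Sfxn2 (-0.18 ± 0.056, adjusted p = 0.0320) and Sfxn3 (0.18 ± 0.063, adjusted p = 0.0462) were called in opposite directions. Both calls were weak: that of Sfxn2 was lost in 9 of 17 alternatives and that of Sfxn3 in 10 of 18, with adjusted p up to 0.0863 and 0.119. Among these, leaving out vehicle-labelled array 1, 3 or 4 or tamoxifen-labelled array 1, 3 or 4 ended both; array 5 of the tamoxifen-labelled group also ended that of Sfxn2, and array 2 of either group that of Sfxn3.

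Genes whose products work beside the carriers were listed too. Of 14 tested partner genes 12 fell and 2 rose (median -0.28), while 8.31% of all tested genes fell and 13.7% rose. This list was chosen with earlier results of these data known. In the malate-aspartate shuttle, all 4 enzymes fell beside Slc25a11, Slc25a12 and Slc25a13: the malate dehydrogenases Mdh2 by 0.73 ± 0.051 and Mdh1 by 0.29 ± 0.048, and the aspartate aminotransferases Got1 by 0.41 ± 0.052 and Got2 by 0.39 ± 0.045 (adjusted p from 3.14e-08 to 0.000354). Next to Slc25a20, the carnitine palmitoyltransferase gene Cpt2 fell by 0.26 ± 0.051 (adjusted p = 0.00151) and the carnitine acetyltransferase gene Crat by 0.18 ± 0.042 (adjusted p = 0.00593). Cpt1a fell by 0.16 ± 0.053 (adjusted p = 0.0433), a call lost without vehicle-labelled array 1, 3 or 5 or tamoxifen-labelled array 3, 4 or 5. Beside the nucleotide carriers, the outer-membrane channel genes Vdac2, Vdac1 and Vdac3 fell by 0.39 ± 0.055, 0.20 ± 0.044 and 0.19 ± 0.049, and the mitochondrial creatine kinase gene Ckmt2 by 0.35 ± 0.051 (adjusted p = 0.000109). The cytosolic creatine kinase gene Ckm rose by 0.20 ± 0.044 (adjusted p = 0.00342), as did Acly, which splits exported citrate, by 0.16 ± 0.044 (adjusted p = 0.0153). Glud1, glutamate dehydrogenase of the matrix, fell by 0.29 ± 0.053 (adjusted p = 0.000797), alongside the glutamate carrier Slc25a22.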

How the data were processed

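The deposited values are log2 signals per probe set. The submitters' processing notes name RMA and Affymetrix Expression Console 1.1. RMA removes background, brings arrays to a common distribution and combines the probes of a set. There are no detection calls, and scan dates were not used here. Per the labels' protocols, 450 ng of total RNA went into each labelling.

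A probe set was named where the platform annotation gives it 1 symbol; 1621 have several and 12146 none. The Entrez identifiers of all 46 carriers led to the same symbols in RefSeq's gene table. The dimmest 30% of named genes were left out (mean log2 signal under 6.55). Limma 3.58.1 in R 4.3.3 was fitted to the 2 groups without covariates, two-sided. Log2 ratios of 9 carrier pairs were compared by an exact two-sided permutation test over arrays. Alternatives changed the prior, array weights, normalization, centring, filter, probe set rule and replicate block, and left out each array. Figures were drawn with matplotlib 3.10.9.

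The carriers, classes, pairs and lists were chosen with earlier results of these data known. By the naming rule any carrier may be named, with values array by array for carriers called with a difference of at least 0.5 and for pair members, and called genes and Mpc1 of the related lists. The values by array of other called carriers, Slc25a20, Slc25a51 and the dim carriers were added after they were seen, as were the transporters and markers named without a call. The bright genes Cox6c and Atp5b were also named after their values were seen.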

Additional observations from a re-analysis of the deposited data

Results flagged for a closer look

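In 8 of 94 groups of 5 values examined, over the 38 carriers and 9 ratios, the highest or lowest array lay far from the others relative to the group's range; chance alone gives about 1 in 20. Most gaps were small in size. Slc25a3 read 13.14 in vehicle-labelled array 5 against 13.17 to 13.18 in the others. Slc25a4 read 14.06 in tamoxifen-labelled array 4 against 14.01 to 14.02. Slc25a40 read 8.35 in tamoxifen-labelled array 5 against 8.31 to 8.32, and Slc25a46 read 11.33 in vehicle-labelled array 2 against 11.25 to 11.27. Slc25a1 read 9.31 in tamoxifen-labelled array 2, the array with the highest median signal, against 9.10 to 9.16. Slc25a37 read 8.70 in vehicle-labelled array 4 against 8.83 to 8.85, and Slc25a30 read 8.77 in vehicle-labelled array 3 against 8.92 to 8.96. The log2 ratio of Slc25a24 to Slc25a25 was 0.39 in vehicle-labelled array 4 against 0.75 to 0.78 in the others of its group.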

How the results depend on the processing

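Over 18 alternatives, 14 of the 15 lower carriers and the rise of Slc25a25 kept their calls wherever they were tested; Slc25a22 lost its call in 6 alternatives, with adjusted p up to 0.0780. No carrier reversed. The count of lower carriers ranged from 14 to 22, the higher end after quantile normalization, where 12.2% of all genes were lower, and the family median from -0.16 to -0.11. The count of higher carriers was 2 with a trended and robust prior and 1 to 2 when 1 array was left out. The counts over all genes moved too. Lower genes numbered 939 to 1780, the higher end with array weights, and higher genes 1424 to 2458. Leaving out 1 array gave differences between the groups from -0.27 to -0.18 in the log2 ratio of Slc25a33 to Slc25a36 and from -0.19 to -0.087 in that of Slc25a24 to Slc25a25.

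The main fit did not pair arrays by the replicate numbers of the titles, since no label says that these mark pairs. Deviations of same-numbered arrays correlated at 0.039 to 0.20. With the replicate number as a block, 17 carriers were lower and 1 higher, and 1300 and 2232 of all genes; the added carriers were Slc25a23 (adjusted p = 0.0360) and Slc25a15 (adjusted p = 0.0400), and 4 of 5 vehicle-labelled arrays correlated best with their own number, a hint from the data and not from the design. Without detection calls, the signal over background of dim carriers is unknown.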
